A study of Mus musculus with 2 samples.

Results

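The cells described here are the cone photoreceptors of the mouse retina whose opsin transcripts were at least 0.2 M opsin, called M-rich cones below. They numbered 509 of the 21193 cells kept from both libraries, 254 in the db/db library and 255 in the WT library. Members were chosen by their transcript counts of 7 genes, namely Arr3, Opn1sw, Opn1mw, Gnat2, Pde6h, Pde6c and Gngt2. Cells were first required to have 200 or more genes detected, with mitochondrial genes giving no more than 20% of the unique molecular identifiers (UMIs, the counted transcript molecules). The 7 genes then had to make up at least 1% of a cell's UMIs and at least 10 UMIs, with at least 5 UMIs from the opsin genes Opn1sw and Opn1mw together. Cones that met all limits but had an M opsin share under 0.2, called S-opsin cones, numbered 519, with 220 in the db/db library and 299 in the WT library. Since members were selected on the levels of these 7 genes, those levels are given as a description and without a test.

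Retinas were taken from untreated mice of the C57BLKS strain at 13 weeks of age and profiled by droplet single-cell RNA sequencing with 10x Genomics 3' v3.1 chemistry. The db/db mice carried the db mutation on both copies of the leptin receptor gene Lepr, a germline change in every cell that leads to obesity and diabetes. The WT mice carried the wild-type Lepr gene on the same strain. Each genotype had 1 library made from the retinas of 2 mice, with no label that ties a cell to a mouse, so the genotypes have no replicate check and no test between them was made.

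Cones carry vision in daylight. Light closes their ion channels through a cascade of opsin, the G protein transducin, a phosphodiesterase and a cyclic nucleotide-gated channel, and cone arrestin ends the opsin signal. Mouse cones use an opsin tuned to short wavelengths, encoded by Opn1sw, and an opsin tuned to middle wavelengths, encoded by Opn1mw. Many mouse cones make both in a ratio that varies from the dorsal to the ventral retina, and the thyroid hormone receptor encoded by Thrb is known to be needed for M opsin and to hold S opsin down.

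The transcripts of 3 of the 7 genes separate the cone classes most, so the 250 bases upstream of their RefSeq starts are shown, from the GRCm38.p6 build and each 5′ to 3′ on the strand of its gene. Capitals mark AGGTCA, the core of nuclear receptor binding sites, and TAATC, the core bound by the photoreceptor factors CRX and OTX2. Both strands were searched, so TGACCT and GATTA count as matches too, and no match of one motif overlapped a match of the other. Opn1mw lies on the plus strand (chrX:74127216-74127465), Arr3 on the plus strand (chrX:100605247-100605496) and Opn1sw on the minus strand (chr6:29380514-29380763).
Opn1mw: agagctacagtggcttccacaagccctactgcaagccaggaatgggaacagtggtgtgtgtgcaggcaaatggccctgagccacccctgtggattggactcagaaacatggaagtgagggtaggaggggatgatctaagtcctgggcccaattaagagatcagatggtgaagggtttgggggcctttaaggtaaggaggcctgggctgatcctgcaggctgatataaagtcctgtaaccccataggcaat
Arr3: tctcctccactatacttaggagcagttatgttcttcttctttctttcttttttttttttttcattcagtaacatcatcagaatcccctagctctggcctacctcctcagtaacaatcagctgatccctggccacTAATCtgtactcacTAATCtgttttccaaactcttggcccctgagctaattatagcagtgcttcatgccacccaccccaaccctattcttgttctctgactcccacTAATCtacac
Opn1sw: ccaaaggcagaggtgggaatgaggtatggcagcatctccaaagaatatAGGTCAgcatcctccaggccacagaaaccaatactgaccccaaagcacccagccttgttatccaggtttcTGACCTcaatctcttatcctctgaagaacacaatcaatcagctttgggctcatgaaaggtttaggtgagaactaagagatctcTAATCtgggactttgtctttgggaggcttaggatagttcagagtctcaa
The Opn1sw window held 2 matches to AGGTCA and 1 to TAATC, the Arr3 window held 3 matches to TAATC and the Opn1mw window held 0 of either. Over 32851 windows of 250 bases upstream of RefSeq starts, AGGTCA was found in 14.0% and TAATC in 19.8%. The matches describe letters and not binding. The GENCODE M21 model of Opn1sw reaches from base 29376671 to base 29388468 of chromosome 6, so it runs past the RefSeq start and holds the window.

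M-rich cones carried both opsins as a class, but most of them had M opsin alone among the counted transcripts. Opn1mw had 6997 UMIs in db/db M-rich cones and 6586 UMIs in WT M-rich cones, which is 5407 and 4859 UMIs when the total of each class is set to 1000000 (CPM). Opn1sw had 2375 UMIs in db/db M-rich cones and 2420 UMIs in WT M-rich cones, or 1835 and 1786 CPM. In S-opsin cones the order of the opsins was the other way round, with 735 CPM of Opn1mw and 12376 CPM of Opn1sw in the db/db library and 713 CPM and 12504 CPM in the WT library. S-opsin cones thus still held M opsin transcripts in both libraries.

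The median M opsin share of an M-rich cone was 1 in each library. No Opn1sw UMI was seen in 143 of 254 db/db M-rich cones (56.3%, exact Clopper-Pearson interval 49.96% to 62.5%) and in 140 of 255 WT M-rich cones (54.9%, 48.6% to 61.1%). These intervals, like all others below, are at 95% and cover counting error only. The remaining M-rich cones, 43.7% in the db/db library and 45.1% in the WT library, had at least 1 Opn1sw UMI. Rods, the dim-light photoreceptors that should lack cone opsins, had an Opn1sw UMI in 15.9% of db/db cells and 17.9% of WT cells, at a median of 1965 and 2218 UMIs per rod against 4833 and 4631 UMIs per M-rich cone. After each cell was thinned to 2000 UMIs, 34.5% of db/db and 36.4% of WT M-rich cones had an Opn1sw UMI, against 11.8% of db/db and 12.6% of WT rods. Rods were taken as kept cells that failed the limits on the 7 genes and had at least 2% of their UMIs from 10 rod markers. Single cells of this class held up to 192 Opn1sw UMIs in the db/db library and 156 in the WT library. The class may thus include cells with cone RNA and is not a clean baseline. Opn1sw is a gene of the rule, which cones passed and rods failed by definition, so these shares are a description. Shallower cells were left out of the thinned shares, which rest on 223 db/db and 209 WT M-rich cones and on 4782 db/db and 4736 WT rods.

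**Figure D1:**
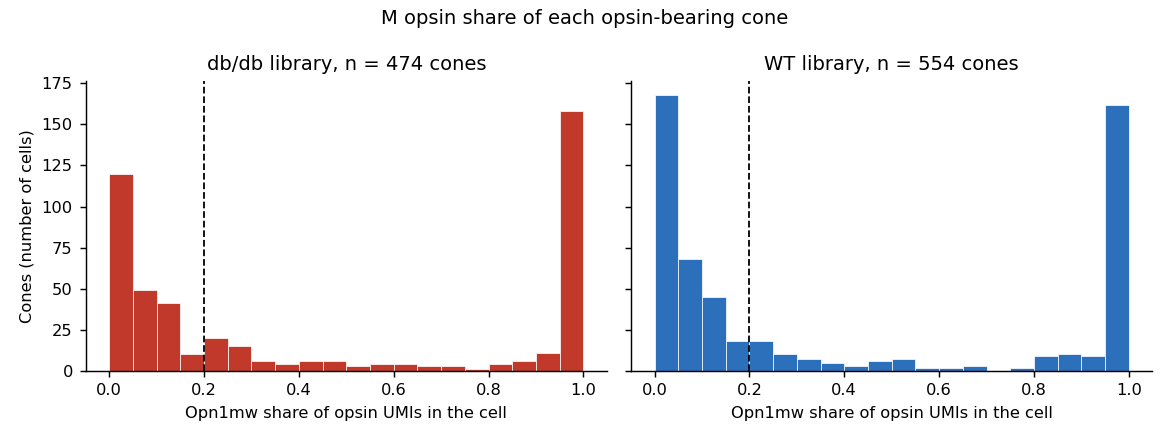
Number of opsin-bearing cones (y axis) by their M opsin share (x axis, Opn1mw UMIs over Opn1mw and Opn1sw UMIs, in bins of 0.05), with 1 panel for each library and a dashed line at the threshold of 0.2. Cones pile up at both ends, with 33.3% of db/db and 29.2% of WT cones in the highest bin and 25.3% of db/db and 30.3% of WT cones in the lowest bin, and the bins from 0.3 to 0.9 hold 0 to 10 cones each.

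Shares formed a continuous range, and the threshold lay at the upper edge of the peak of low shares, below the thinly filled middle of the histogram. Just above it, at shares of 0.2 to under 0.25, lay 20 db/db and 18 WT cones, with a median of 12.5 and 6.5 Opn1mw UMIs and of 41 and 24.5 Opn1sw UMIs. Just below it, at 0.15 to under 0.2, lay 10 db/db and 19 WT cones, with a median of 15 and 13 Opn1mw UMIs and of 79 and 58 Opn1sw UMIs. M-rich cones are thus a range of shares and not a separate type by this rule. The opsin minimum left out 6 db/db and 10 WT cells with 3 or 4 opsin UMIs, while 12 db/db and 19 WT opsin-bearing cones had 5 or 6.

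Total opsin was lower in M-rich cones. Their median opsin count was 33 UMIs per db/db cone and 31 UMIs per WT cone, against 80 UMIs per S-opsin cone in each library. The other rule genes, given as a description, differed less between the classes than the opsins did. Arr3, which encodes cone arrestin, had 3024 CPM in db/db and 3159 CPM in WT M-rich cones, against 1389 CPM in db/db and 1585 CPM in WT S-opsin cones. Pde6h, the inhibitory subunit of the cone phosphodiesterase, had 5192 and 5295 CPM in db/db and WT M-rich cones, against 4150 and 4782 CPM in db/db and WT S-opsin cones. Gnat2, the cone transducin alpha subunit, lay at 2762 and 2616 CPM in db/db and WT M-rich cones and at 2356 and 2465 CPM in db/db and WT S-opsin cones. Pde6c, a catalytic subunit of the cone phosphodiesterase, had 953 and 1025 CPM in db/db and WT M-rich cones, against 907 CPM in S-opsin cones of each library. Gngt2, the cone transducin gamma subunit, was lower in M-rich cones, at 3770 and 3131 CPM in the db/db and WT library, against 3883 and 3516 CPM in db/db and WT S-opsin cones. In rods, Arr3 had 52.4 CPM in the db/db library and 83.4 CPM in the WT library, a gap to cones that the rule itself set.

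Depth was alike between the classes compared. M-rich cones had a median of 4833 UMIs in the db/db library and 4631 in the WT library, and S-opsin cones had 4958.5 and 4950. Class totals were 1294184 and 1355349 UMIs for db/db and WT M-rich cones, against 1288285 and 1713825 UMIs for db/db and WT S-opsin cones. The median mitochondrial share was 6.85% and 6.34% in db/db and WT M-rich cones and 5.96% and 5.56% in db/db and WT S-opsin cones. Transcripts of 10 rod markers made up a median of 1.55% and 1.73% of the UMIs of db/db and WT M-rich cones, 1.80% and 2.06% of those of db/db and WT S-opsin cones, and 4.26% and 4.34% of those of db/db and WT rods. The libraries shared 26 cell barcodes. Markers of bipolar cells were concentrated in few M-rich cones, with 111 of 172 UMIs in 2 db/db cones and 222 of 296 in 4 WT cones. Müller glia markers were spread more widely, with at least 1 UMI in 92 db/db and 124 WT M-rich cones, while 55 of 229 UMIs lay in 2 db/db cones and 209 of 425 in 4 WT cones. Lepr had 0 UMIs in M-rich and S-opsin cones of both libraries, and the db mutation does not remove the 3' end that is counted, so the gene does not check the labels.

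M-rich cones made up 53.6% of opsin-bearing cones in the db/db library (254 of 474, 49.0% to 58.1%) and 46.0% in the WT library (255 of 554, 41.8% to 50.3%). The ratio of these shares was 1.16, with an exact conditional binomial interval of 0.975 to 1.39. This interval takes the cone totals as fixed and the M-rich counts as unbounded, which makes it too wide for shares this large. That it includes 1 thus does not show that counting error covers the difference. Of all kept cells, M-rich cones were 2.32% in the db/db library (2.04% to 2.62%) and 2.49% in the WT library (2.20% to 2.81%), a ratio of 0.929 (0.778 to 1.11). S-opsin cones were 2.01% of kept db/db cells and 2.92% of kept WT cells, a ratio of 0.687 with an interval of 0.574 to 0.820 that lies below 1. Among kept cells the interval of M-rich cones held 1 and that of S-opsin cones did not. With 1 library per genotype, the spread between mice and between dissociations is unknown.

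Across M-rich and S-opsin cones together, 5 bins of the M opsin share showed how other transcripts followed it. The bins held cones with no Opn1mw, with a share above 0 and under 0.2, from 0.2 to under 0.5, from 0.5 to under 0.9, and from 0.9 to 1. In that order they held 86, 134, 57, 28 and 169 db/db cones and 114, 185, 49, 35 and 171 WT cones, and the last 3 bins are M-rich. Total opsin was lowest in the last bin of each library, with 137, 128, 109, 71.9 and 61.9 opsin UMIs per 10000 UMIs in the db/db library and 131, 133, 97.5, 69.4 and 55.6 in the WT library. No test was made over the bins, since the opsin counts define them.

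Thrb, the thyroid hormone receptor beta gene, had 167, 371, 460, 528 and 564 CPM along the bins in the db/db library and 106, 324, 314, 341 and 428 CPM in the WT library. The lowest level in each library lay in cones with no Opn1mw. Nr2f2, which encodes a nuclear receptor of the dorsal retina, had 0, 1.17, 3.84, 28.9 and 61.4 CPM in the db/db library and 3.52, 1.75, 3.34, 6.43 and 56.6 CPM in the WT library. Its transcripts were thus concentrated in the bin with the highest M opsin share. Ccdc136, a coiled-coil protein gene next to Opn1sw, had 962, 856, 717, 390 and 48.0 CPM in the db/db library and 936, 763, 595, 302 and 31.1 CPM in the WT library, and was lower at each step in both.

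Nrxn3, Rd3l and Tshz2 set cones with no Opn1mw apart from all the rest. Nrxn3, a synaptic adhesion gene, had 290 CPM in such cones of the db/db library and 250 CPM in those of the WT library, while its highest level in any other bin was 25.6 CPM in the db/db library and 43.4 CPM in the WT library. Rd3l had 114 and 116 CPM in db/db and WT cones with no Opn1mw, and at least 598 CPM in db/db and 759 CPM in WT cones of every other bin. Tshz2, a zinc finger gene, had 25.6 and 24.6 CPM in db/db and WT cones with no Opn1mw, and 272 and 275 CPM in db/db and WT cones of the highest bin. Smug1, a DNA repair glycosylase gene, had its highest levels in the 2 highest bins, at 246 and 271 CPM in the db/db library and 212 and 252 CPM in the WT library.

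**Figure D2:**
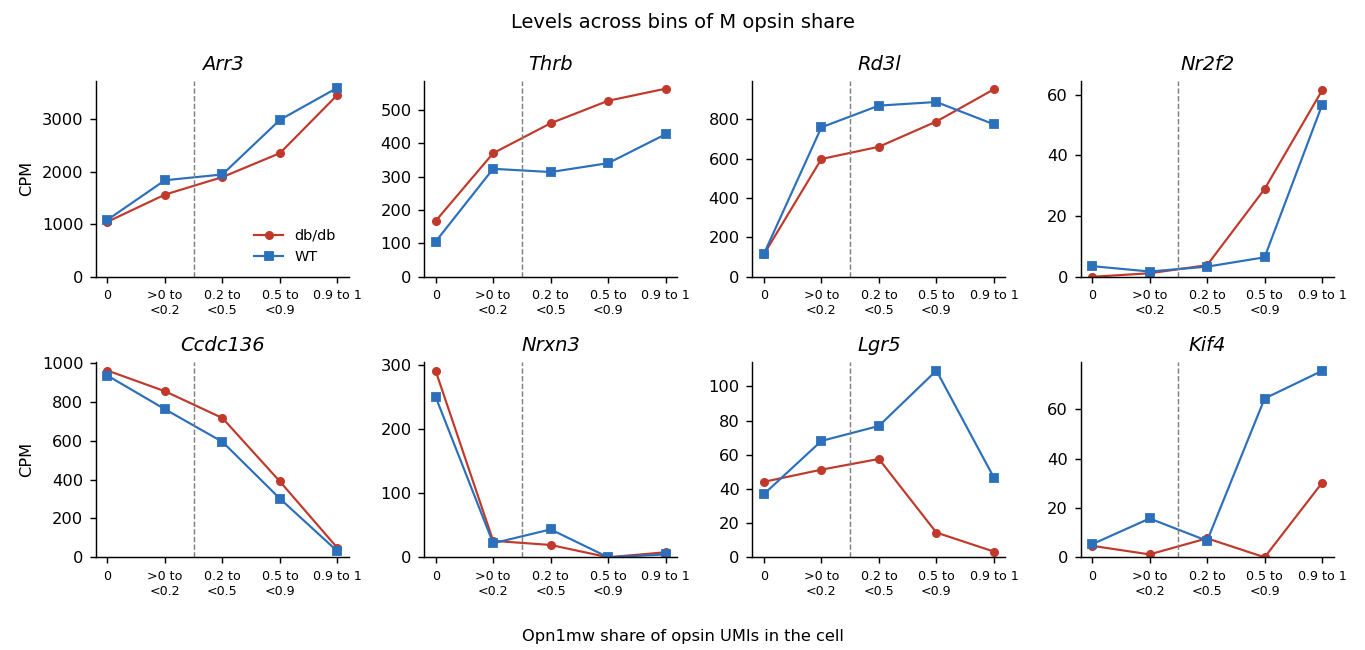
Levels of 8 genes (y axis, CPM of the bin total, from 0) along 5 bins of the M opsin share (x axis), with the db/db library in red, the WT library in blue and a dashed line between S-opsin and M-rich cones. Thrb and Nr2f2 were highest in the bin of the highest share in each library, Ccdc136 was lowest there, and Nrxn3 was highest in cones with no Opn1mw.

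For the comparison of M-rich with S-opsin cones, the UMIs of each class were added up within each library and tested with edgeR's quasi-likelihood test, with the library as a block and the 7 rule genes described only. Of 9340 other genes tested, 165 (1.77%) were higher in M-rich cones and 149 (1.6%) were lower at a Benjamini-Hochberg adjusted p under 0.05, or 314 genes (3.36%) in either direction. All 314 had the same direction within the db/db library and within the WT library. Both libraries entered the fit that called these genes, so a shared direction was nearly given and is not a second test. At least 2-fold higher in M-rich cones were 52 of the called genes and at least 2-fold lower were 51. The classes were split by opsin transcripts of these same cells, which share libraries and free RNA, so the counts describe what moves with the opsin share. The fit has 4 sums and 1 residual degree of freedom, and its spread was little more than counting error, so the p-values do not cover differences between mice. DESeq2 on the same sums called 25 higher and 23 lower, and all 48 were among the 314. Without the block, edgeR called 108 higher and 85 lower, and all 193 were among the 314.

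Dorsal and ventral patterning genes stood at both ends of the comparison. Nr2f2 had 60 UMIs in db/db and 53 in WT M-rich cones, against 1 UMI in db/db and 4 in WT S-opsin cones. It was higher in M-rich cones by a log2 fold change of 4.61 ± 0.41 (SE, edgeR adjusted p = 1.18e-25), and its levels in the classes did not overlap. Nr2f2 lies on chromosome 7 from base 70351944 to base 70366735 of GRCm38 on the minus strand. Rods had 24.6 CPM of Nr2f2 in the db/db library and 28.3 CPM in the WT library, between the levels of the cone classes. Vax2, a homeobox gene of the ventral retina, had 17 and 27 UMIs in db/db and WT M-rich cones, against 95 and 102 UMIs in db/db and WT S-opsin cones (log2 fold change -1.98 ± 0.23, edgeR adjusted p = 1.06e-15). Its antisense neighbour Vax2os had 205 and 229 UMIs in db/db and WT M-rich cones, against 499 and 548 UMIs in db/db and WT S-opsin cones (log2 fold change -1.09 ± 0.10, edgeR adjusted p = 1.18e-25). The models of Vax2 and Vax2os overlap by 938 bases on opposite strands, and since the use of strand in counting is not given in the sources used here, their reads may not be fully separate. Epha5, a guidance receptor gene, was also higher, with 31 and 25 UMIs in db/db and WT M-rich cones against 10 and 12 UMIs in db/db and WT S-opsin cones (log2 fold change 1.51 ± 0.36, edgeR adjusted p = 0.0018). Of the 6 patterning genes tested, 2 were higher and 1 was lower, against 1.77% and 1.6% of all 9340 genes tested.

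En2 and Epha8 extended the lower side. En2, an engrailed homeobox gene, had 5 and 4 UMIs in db/db and WT M-rich cones, against 65 and 66 UMIs in db/db and WT S-opsin cones (log2 fold change -3.66 ± 0.36, edgeR adjusted p = 1.96e-21). Epha8, an ephrin receptor gene, had 2 and 1 UMIs in db/db and WT M-rich cones, against 30 and 22 UMIs in db/db and WT S-opsin cones (log2 fold change -3.87 ± 0.58, edgeR adjusted p = 5.80e-09). Both were near 0 in M-rich cones of each library. Within 1 library, Epha8 was at -3.33 in db/db and -2.54 in WT, with M-rich UMIs set to a floor of 3. Ebf2, a transcription factor gene, had 0 UMIs in M-rich cones of both libraries, against 11 UMIs in db/db and 21 in WT S-opsin cones. Set against a floor of 3 UMIs per library, that is a log2 ratio of at most -1.88 within the db/db library and at most -2.47 within the WT library.

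Thyroid hormone and transcription factor genes moved in both directions. Thrb had 698 UMIs in db/db and 532 in WT M-rich cones, against 390 UMIs in db/db and 431 in WT S-opsin cones, which is 539 and 393 CPM against 303 and 251 CPM. It was higher in M-rich cones by a log2 fold change of 0.75 ± 0.09 (edgeR adjusted p = 1.78e-15). Thrb lies on chromosome 14 from base 17660261 to base 18038090 of GRCm38 on the plus strand. The other called gene of the 12 thyroid hormone handling genes tested was Ncoa2, a nuclear receptor coactivator, which was lower (log2 fold change -0.54 ± 0.15, edgeR adjusted p = 0.010). Among 16 photoreceptor transcription factor genes, Thrb and Samd7, a repressor of photoreceptor genes, were higher and 4 were lower. Those 4 were Otx2 (-0.43 ± 0.09), Rorb (-0.37 ± 0.08), Mef2c (-0.38 ± 0.10) and Samd11 (-0.41 ± 0.10), with edgeR adjusted p from 0.0003 to 0.0056. All 4 are also transcribed in rods or other retinal cells, and rod marker levels differed between the classes too, as given below. Over all 9340 tested genes the median log2 fold change was 0.00, with 1.77% called higher and 1.6% called lower.

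Ccdc136 had the lowest p of the genes outside the rule, and it was chosen for description after its value was seen, as were Socs3, Smug1, Vax2os, Rd3l, Tshz2, Ppa1, Mgst3 and Fzd10. It had 284 and 253 UMIs in db/db and WT M-rich cones, against 1148 and 1406 UMIs in db/db and WT S-opsin cones (log2 fold change -2.07 ± 0.09, edgeR adjusted p = 1.55e-120). Ccdc136 starts 7840 bases from the GENCODE model of Opn1sw on chromosome 6, on the other strand. Kif4, a kinesin gene, lies 7243 bases downstream of the rule gene Arr3 on chromosome X, on the same strand. It had 29 and 80 UMIs in db/db and WT M-rich cones, against 3 and 21 UMIs in db/db and WT S-opsin cones (log2 fold change 2.44 ± 0.30, edgeR adjusted p = 7.49e-14). Within 1 library, the log2 fold of Kif4 was 3.27 in db/db and 2.27 in WT. For both neighbours the difference ran the same way as that of the adjacent rule gene.

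Nrxn3, a synaptic adhesion gene, was among the 10 genes with the lowest fold. It had 12 and 17 UMIs in db/db and WT M-rich cones, against 147 and 167 UMIs in db/db and WT S-opsin cones (log2 fold change -3.25 ± 0.22, edgeR adjusted p = 3.73e-44). Cacna1h, a T-type calcium channel gene, had 5 and 6 UMIs in db/db and WT M-rich cones, against 50 and 78 UMIs in db/db and WT S-opsin cones (log2 fold change -3.31 ± 0.35, edgeR adjusted p = 8.91e-19). Both genes were low in every M-rich sum. Of 30 genes of the cone terminal and ribbon synapse, 5 were higher in M-rich cones and 1 was lower. The shares over all 9340 genes tested were 1.77% and 1.6%. The higher ones were Atp2b1, a plasma membrane calcium pump (0.57 ± 0.07), Cplx3, a complexin of ribbon synapses (0.25 ± 0.08), Syt1, a vesicle calcium sensor (0.24 ± 0.07), the vesicle gene Sv2b (0.28 ± 0.08) and the glutamate transporter gene Slc1a2 (0.22 ± 0.07). Gnb1, a transducin beta subunit of rods, was the lower one (-0.29 ± 0.07), and the edgeR adjusted p of these 6 genes was at most 0.0443.

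Other genes of phototransduction differed by small folds. Of all 9340 genes tested, 3.36% were called in either direction, and the shares in the phototransduction and outer segment lists were higher. Of 18 tested, Slc24a2, the sodium, calcium and potassium exchanger of cones, was higher in M-rich cones (0.49 ± 0.13, edgeR adjusted p = 0.0059). Guca1a and Guca1b, which activate guanylate cyclase when calcium is low, were lower by log2 fold changes of -0.26 ± 0.06 and -0.43 ± 0.07. The other 15 did not pass the test. Among 18 outer segment and cilium genes, Cdhr1 (0.29 ± 0.07) and Rp1l1 (0.37 ± 0.09) were higher, and Rp1 (-0.27 ± 0.06), Rpgr (-0.60 ± 0.15), Pcdh15 (-0.24 ± 0.08) and Cngb1 (-0.31 ± 0.08) were lower, with edgeR adjusted p of at most 0.0466. Cngb1 encodes a channel subunit of rods.

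Transcripts encoded by the mitochondrial genome were higher as a group, with 11 of 13 called higher in M-rich cones, 0 called lower and a median log2 fold change of 0.26. Of all 9340 genes tested, 1.77% were called higher and 1.6% lower. Abundant genes such as these pass the test at smaller folds. mt-Co1, a cytochrome oxidase subunit, had 9205 and 7919 CPM in db/db and WT M-rich cones, against 7628 and 6961 CPM in db/db and WT S-opsin cones (log2 fold change 0.24 ± 0.06, edgeR adjusted p = 0.0091). The rod markers went the other way, with 7 of 10 called lower, 0 called higher and a median of -0.28. Sag, the rod arrestin gene, had 4519 and 5011 CPM in db/db and WT M-rich cones, against 6339 and 6216 CPM in db/db and WT S-opsin cones (log2 fold change -0.39 ± 0.06). The part of rod RNA and of mitochondrial content in the other small differences was not tested.

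The metabolic and stress lists described here gave at most 3 calls each. Of all 9340 genes tested, 3.36% were called in either direction. The glycolysis, polyol, insulin and hypoxia lists lay above that share, though on 1 to 3 genes each. Of 21 glycolysis genes, Ldhb, a lactate dehydrogenase subunit, was higher (162 and 158 UMIs in db/db and WT M-rich cones, against 86 and 123 UMIs in db/db and WT S-opsin cones, log2 fold change 0.80 ± 0.14) and Hk2, a hexokinase, was lower (-0.27 ± 0.07). Of 12 polyol, hexosamine and glyoxalase genes, Uap1 of hexosamine synthesis was higher (0.59 ± 0.12) and Glo1, which clears methylglyoxal, was lower (-0.48 ± 0.07). Of 19 insulin, IGF and leptin signalling genes, 0 were higher and 3 were lower. Among those 3, Socs3, a feedback inhibitor of cytokine signalling, had 91 and 89 UMIs in db/db and WT M-rich cones, against 325 and 339 UMIs in db/db and WT S-opsin cones (log2 fold change -1.71 ± 0.13, edgeR adjusted p = 1.78e-38). The phosphatidylinositol kinase genes Pik3ca and Pik3r1 were each lower by a log2 fold change of -0.43. The hypoxia list had 1 of 14 genes called, Ndrg1, which was lower (-0.70 ± 0.15). None of 21 unfolded protein response genes and none of 18 antioxidant genes passed the test, and the median log2 fold change was -0.00 in the 21 and 0.10 in the 18.

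Smug1, Rd3l and Tshz2 were among the genes with a low p on the higher side. Smug1 had 300 and 291 UMIs in db/db and WT M-rich cones, against 90 and 128 UMIs in db/db and WT S-opsin cones (log2 fold change 1.62 ± 0.12, edgeR adjusted p = 8.31e-37). Tshz2 had 308 and 337 UMIs in db/db and WT M-rich cones, against 137 and 229 UMIs in db/db and WT S-opsin cones (1.02 ± 0.11, edgeR adjusted p = 5.30e-18). Rd3l, a paralogue of a regulator of guanylate cyclase, had 1133 and 1095 UMIs in db/db and WT M-rich cones, against 562 and 935 UMIs in db/db and WT S-opsin cones (0.78 ± 0.08, edgeR adjusted p = 3.06e-22). Rd3l did not pass in DESeq2, with an adjusted p of 0.078, and its log2 fold was 1.005 within the db/db library and 0.57 within the WT library. Fzd10, a Wnt receptor gene, was higher by 1.203 ± 0.144, Mgst3, a glutathione transferase gene, by 0.89 ± 0.10, and Ppa1, an inorganic pyrophosphatase gene, by 0.83 ± 0.09.

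**Figure D3:**
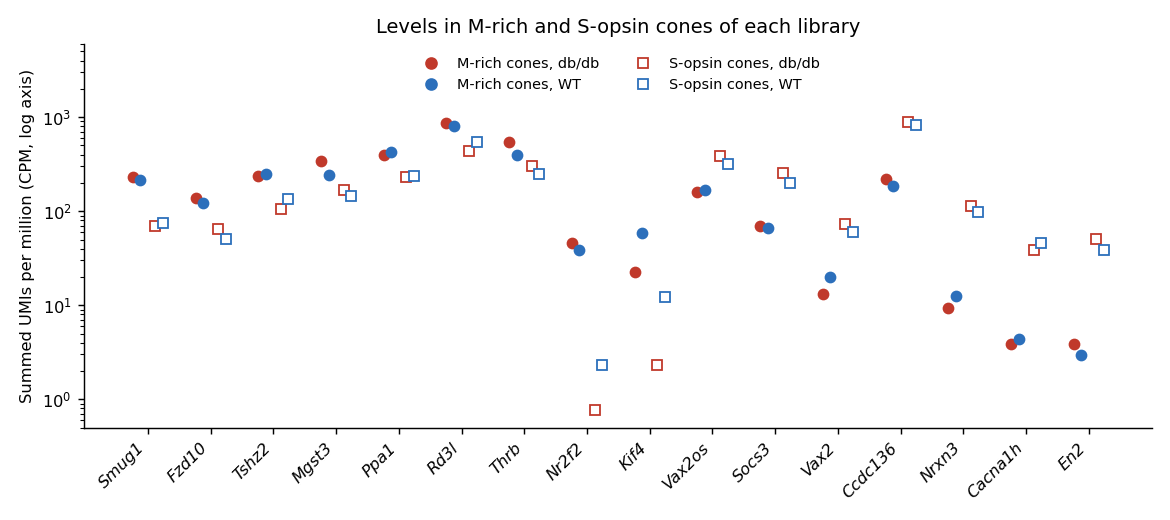
Levels of 16 genes (x axis) by level (y axis, CPM, log axis), with 1 filled point for M-rich cones and 1 open point for S-opsin cones of each library, db/db in red and WT in blue, and no error bars since each point is 1 sum. The M-rich points of Nr2f2 lie at 46.4 and 39.1 CPM above S-opsin points at 0.776 and 2.33 CPM, and those of Ccdc136 lie at 219 and 187 CPM below S-opsin points at 891 and 820 CPM.

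Several of the genes with the largest folds rested on few molecules or few cells. Myocd had 15 and 11 UMIs in db/db and WT M-rich cones, against 0 and 2 UMIs in db/db and WT S-opsin cones. Tmem246, Cap2, Alpk2, Cdh12 and Mdga2 had 11 to 18 UMIs in each M-rich sum and at most 6 in each S-opsin sum, with log2 fold changes of 2.44 to 3.07. Galnt17 had 2 and 1 UMIs in db/db and WT M-rich cones, against 10 and 16 UMIs in db/db and WT S-opsin cones. Klhl41 had 7 and 2 UMIs in db/db and WT M-rich cones, against 33 and 40 UMIs in db/db and WT S-opsin cones.

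Trpm1 and Pcp2, both markers of bipolar cells, were called higher in M-rich cones at log2 fold changes of 3.21 and 2.53. Of 39 and 65 Trpm1 UMIs in db/db and WT M-rich cones, 22 and 26 lay in 1 cell of each library. With the 8% of cells that scored highest as doublets left out, Trpm1 fell to a log2 fold change of 1.31 (edgeR adjusted p = 0.185). Pcp2 had 32 of 55 db/db and 55 of 116 WT UMIs in 1 cell each, and without cones that held at least 10 UMIs of another class's markers its log2 fold change was 0.34 (edgeR adjusted p = 0.837). Ttr, Trf and Ptgds, which were called lower, had nearly all their S-opsin cone UMIs in 1 cell of each library. Those cells held 14 of 14 db/db and 95 of 100 WT Ttr UMIs, 78 of 79 and 31 of 32 Trf UMIs, and 52 of 55 and 156 of 159 Ptgds UMIs. Within 1 library, and with M-rich UMIs set to the floor of 3, Ttr was at -2.23 in db/db and -4.72 in WT. Trf was at -4.31 in db/db and -3.08 in WT. Ttr is a marker of the retinal pigment epithelium, and the 4 markers of that tissue had 4 UMIs in M-rich cones of each library.

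The db/db and WT libraries were compared within M-rich cones by the log2 ratio of CPM, with exact conditional binomial intervals. Genes with at least 50 UMIs over both libraries counted as measured, and 6896 did. Of these, 25 (0.363%) were at least 2-fold higher in the db/db library and 22 (0.319%) were at least 2-fold lower. The interval lay above 0 for 320 genes (4.64%) and below 0 for 317 (4.6%), and the median log2 ratio of all measured genes was -0.00. The ratio itself was above 0 for 3417 genes and below 0 for 3479. Intervals narrow as UMIs rise, so those of abundant genes clear 0 at smaller ratios. With 1 library of 2 mice per genotype, genotype cannot be told apart from mouse, dissociation or library, and words such as higher describe these libraries.

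Selenbp1, a selenium-binding protein with methanethiol oxidase activity, had 57 UMIs in db/db M-rich cones and 10 UMIs in WT M-rich cones, or 44.0 and 7.38 CPM. It was seen in 44 of 254 db/db and 9 of 255 WT M-rich cones, and its log2 ratio was 2.58 (1.60 to 3.71). The same ratio was 2.65 in S-opsin cones and 2.31 in rods, so it was of like size in the 3 photoreceptor classes. Selenbp1 lies on chromosome 3 from base 94933056 to base 94944758 on the plus strand. AC149090.1 had 167 UMIs in db/db and 64 in WT M-rich cones (log2 ratio 1.45, 1.03 to 1.89), with 1.32 in S-opsin cones and 1.91 in rods. Agr2, a protein disulphide isomerase gene of the secretory pathway, had 65 UMIs in db/db and 25 in WT M-rich cones (1.45, 0.76 to 2.17), with 1.02 in S-opsin cones.

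Rxra, a retinoid X receptor gene whose product pairs with thyroid hormone receptors, had 39 UMIs in db/db and 14 in WT M-rich cones (log2 ratio 1.54, 0.63 to 2.54), with 0.84 in S-opsin cones. Slc19a1, the reduced folate carrier gene, had 41 UMIs in db/db and 15 in WT M-rich cones (1.52, 0.63 to 2.48), with 0.84 in S-opsin cones. Cdk5r2, an activator of the neuronal kinase CDK5, had 120 UMIs in db/db and 62 in WT M-rich cones (1.02, 0.57 to 1.49), with 0.73 in S-opsin cones. All 3 ratios lay above 0 in both cone classes. Ccdc14, a coiled-coil protein gene, had 39 UMIs in db/db and 16 in WT M-rich cones (1.35, 0.48 to 2.29). Psd3, which encodes an exchange factor for ARF6, had 120 UMIs in db/db and 67 in WT M-rich cones (0.91, 0.46 to 1.36). In S-opsin cones the ratios of Ccdc14 and Psd3 were -0.33 and -0.35, with intervals that included 0.

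Lgr5, which encodes a receptor for R-spondins and marks stem cells of the gut, had 20 UMIs in 19 db/db M-rich cones and 82 UMIs in 63 WT M-rich cones. Its log2 ratio was -1.97 (-2.75 to -1.25), against -0.24 (-0.72 to 0.23) in S-opsin cones. In rods Lgr5 had 62 db/db and 107 WT UMIs, and its ratio was -0.76 (-1.23 to -0.29), also below 0. Along the 5 bins of the M opsin share, Lgr5 had 44.2, 51.3, 57.5, 14.5 and 3.35 CPM in the db/db library and 37.0, 68.1, 76.9, 109 and 46.6 CPM in the WT library. The libraries were thus closer in the 3 lower bins than in the 2 highest, which hold 28 and 169 db/db cones and 35 and 171 WT cones. Lgr5 lies on chromosome 10 from base 115450311 to base 115587780 on the minus strand and overlaps A930009A15Rik on the opposite strand by 12463 bases. Kif4 had 29 UMIs in 23 db/db and 80 UMIs in 48 WT M-rich cones, a log2 ratio of -1.40 (-2.06 to -0.77), with -2.40 in S-opsin cones and -1.36 in rods. Its ratio lay below 0 in all 3 classes.

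Acsl5, a long-chain acyl-CoA synthetase gene, had 15 UMIs in db/db and 41 in WT M-rich cones (log2 ratio -1.38, -2.34 to -0.50), with -1.38 in S-opsin cones. Abtb1, an ankyrin repeat and BTB domain gene, had 12 UMIs in db/db and 38 in WT M-rich cones (-1.60, -2.67 to -0.63), with 0.55 in S-opsin cones. Of the 16 genes named by rank of the interval, 13 had the same sign in S-opsin cones, where the interval of 11 lay on the same side of 0 and that of 0 lay on the opposite side. The share of all measured genes with the same sign in both classes was not counted, so the 13 have no baseline. Since both classes come from the same libraries, this is a second set of cells and not a second sample.

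Fos, Fosb and Jun are immediate early genes, which respond within minutes to activity, stress or cell handling, and part of their UMIs lay in single cells. Fos had 566 UMIs in db/db and 956 in WT M-rich cones (log2 ratio -0.69, -0.84 to -0.54), with 49 and 138 of them in 1 cell of the db/db and the WT library. Fosb had 34 UMIs in db/db and 103 in WT M-rich cones (-1.53), with 24 in 1 WT cell. Jun had 104 UMIs in db/db and 233 in WT M-rich cones (-1.10), with 77 in 1 WT cell. With the 8% of cells that scored highest as doublets left out, the ratios were -0.28 for Fos, -0.86 for Fosb and -0.67 for Jun. That cut took out 20 of 254 db/db and 39 of 255 WT M-rich cones, so the libraries lost unequal shares. Mt1, a metallothionein gene, had 18 UMIs in db/db and 96 in WT M-rich cones (-2.35), of which 74 lay in 1 WT cell, and without those high-scoring cells its ratio was 0.025. In S-opsin cones and rods the ratios were -0.84 and -0.59 for Fos and -0.87 and -1.43 for Fosb. They were -0.08 and -0.24 for Jun and -1.26 and -0.30 for Mt1. All 4 genes were thus below 0 in the 3 photoreceptor classes. Of 14 measured immediate early genes, 5 had a ratio above 0 in M-rich cones and 9 below. Among all 6896 measured genes, 3417 were above 0 and 3479 below. The median of the 14 was -0.28, against 0.02 in S-opsin cones, and Egr1 was at 0.22 (0.07 to 0.38).

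**Figure D4:**
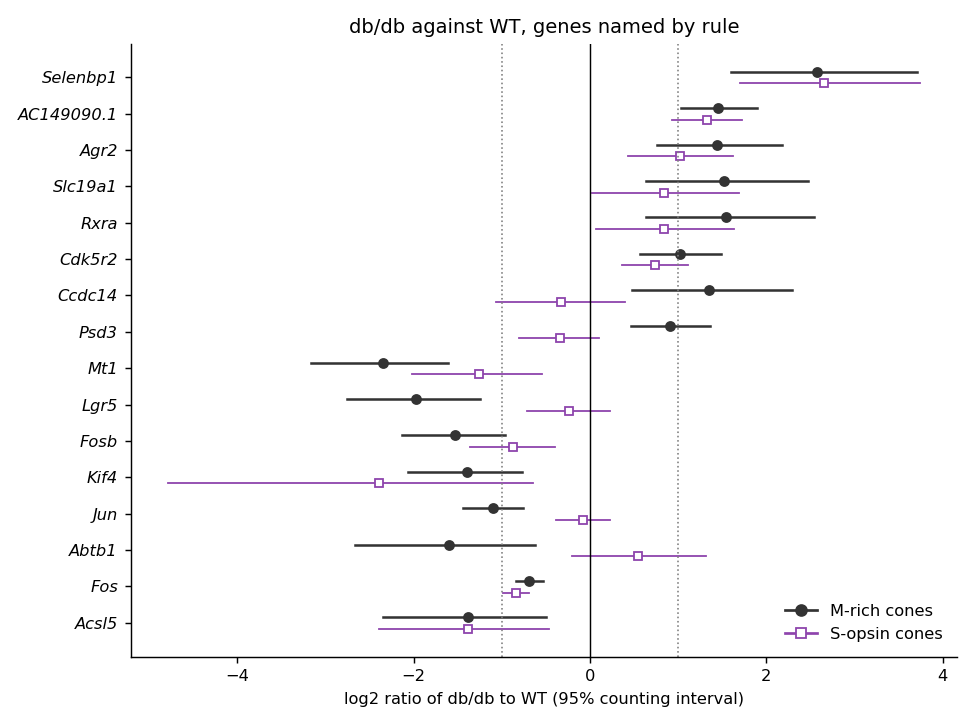
Log2 ratio of db/db to WT (x axis) with 95% counting intervals for the 16 genes named by rank (rows), with filled points for M-rich cones and open points for S-opsin cones and dotted lines at 2-fold. Selenbp1 lies at 2.58 in M-rich and 2.65 in S-opsin cones, while Lgr5 lies at -1.97 in M-rich cones and -0.24 in S-opsin cones.

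The opsin and cone genes themselves, given as a description, were close between genotypes. Opn1mw had a log2 ratio of 0.15 (0.11 to 0.20) in M-rich cones and Opn1sw one of 0.04. Gngt2 had 0.27, Gnat2 0.08, Pde6h -0.03, Arr3 -0.06 and Pde6c -0.10. Among the 18 other phototransduction genes the median was -0.03, with 4 intervals above 0 and 2 below. Guca1a had 5839 UMIs in db/db and 5466 in WT M-rich cones (0.16, 0.11 to 0.22), and the channel subunit gene Cngb3 had 543 UMIs in db/db and 481 in WT M-rich cones (0.24, 0.06 to 0.42). Recoverin, encoded by Rcvrn, had 4555 UMIs in db/db and 5581 in WT M-rich cones (-0.23, -0.28 to -0.17), and Guca1b had 820 UMIs in db/db and 1076 in WT M-rich cones (-0.33, -0.46 to -0.19). Recoverin and Guca1b are abundant in rods as well.

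All 10 rod markers had intervals below 0 in M-rich cones, with a median of -0.26, against a median of -0.03 in S-opsin cones. Over all 6896 measured genes, 4.6% had intervals below 0. Gnat1, the rod transducin alpha subunit gene, had 2269 UMIs in db/db and 2983 in WT M-rich cones (-0.33, -0.41 to -0.25). Outer segment and cilium genes shifted the same way, with a median of -0.15, 7 of 18 intervals below 0 and 1 above. Their members include Rom1, which is also on the rod list, and Cngb1, the rod channel subunit gene (-0.33, -0.52 to -0.14). Rp1, a microtubule protein gene of the outer segment axoneme, had 2906 UMIs in db/db and 3549 in WT M-rich cones (-0.22, -0.29 to -0.15). The part of rod RNA in these ratios was not tested. Among 29 synapse genes the median was -0.02, and the intervals of Pclo (0.33) and Slc1a2 (0.12) lay above 0 and that of Gnb1 (-0.30) below. All 3 measured markers of Müller glia and all 3 of bipolar cells had ratios below 0, with medians of -0.73 and -0.67 and 2 intervals below 0 in each list.

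Thyroid hormone and retinoid receptor genes were above 0 more often than below. Thrb had 698 UMIs in db/db and 532 in WT M-rich cones (log2 ratio 0.46, 0.29 to 0.62). Rxrg, the retinoid X receptor gene of cones, had 109 UMIs in db/db and 68 in WT M-rich cones (0.75, 0.30 to 1.21), and the corepressor gene Ncor1 had 375 UMIs in db/db and 320 in WT M-rich cones (0.30, 0.08 to 0.52). Over the 12 measured genes of thyroid hormone handling, 8 were above 0, with a median of 0.18, 4 intervals above 0 and 0 below. Of all 6896 measured genes, 3417 were above 0 and 320 had intervals above 0. In S-opsin cones the median was 0.12. Among 16 photoreceptor transcription factor genes the median was 0.08, with 3 intervals above 0 and 3 below. Those above were Thrb, Rxrg and Prdm1 (0.49, 0.02 to 0.97), and those below were Rorb (-0.30), Mef2c (-0.36) and Samd11 (-0.34).

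Glycolysis genes were slightly higher in the db/db library, with 18 of 21 above 0, a median log2 ratio of 0.14, 6 intervals above 0 and 0 below. Over all measured genes, 3417 of 6896 were above 0 and 4.64% had intervals above 0, and several glycolysis genes are abundant, with narrow intervals. Gpi1, glucose phosphate isomerase, had 597 UMIs in db/db and 486 in WT M-rich cones (0.36, 0.19 to 0.54), and Aldoa, an aldolase, had 3306 UMIs in db/db and 2965 in WT M-rich cones (0.22, 0.15 to 0.30). Tpi1 (0.23), Eno1 (0.23), Pgam1 (0.21) and Gapdh (0.07) were the other 4 genes with intervals above 0. The median was 0.12 in S-opsin cones, so the shift was of like size in both classes. Of 10 genes of the polyol, hexosamine and glyoxalase routes, which take up excess glucose or its by-products, 3 had intervals above 0 and 0 below. Glo1 had 1472 UMIs in db/db and 1182 in WT M-rich cones (0.38, 0.27 to 0.49). Fn3k, which removes sugar adducts from proteins, had 75 UMIs in db/db and 46 in WT M-rich cones (0.77, 0.22 to 1.33).

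Mitochondrial transcripts were above 0 for 11 of 13 genes, with a median of 0.21, 8 intervals above 0 and 2 below. Among all 6896 measured genes, 3417 were above 0, and 4.64% had intervals above 0. These transcripts are abundant, so their intervals are narrow. mt-Co3 had 16177 UMIs in db/db and 13355 in WT M-rich cones (0.34, 0.31 to 0.38), while mt-Nd4 was at -0.06 and mt-Nd4l at -0.21. The median mitochondrial share of an M-rich cone, 6.85% in the db/db library and 6.34% in the WT library, differed in the same direction. Malat1, a nuclear RNA, was at -0.16, with 51835 UMIs in db/db and 60678 in WT M-rich cones.

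The medians of the stress, hypoxia and signalling lists lay between -0.16 and 0.14. Heat shock genes had a median of -0.09, with Hspa1a at -0.49 and Hsp90aa1 at -0.25. Unfolded protein response genes had a median of 0.03, with the endoplasmic reticulum chaperone genes Hsp90b1 at -0.38 and Canx at -0.23. Kdm3a, a histone demethylase gene induced by low oxygen, had 31 UMIs in db/db and 70 in WT M-rich cones (-1.11, -1.77 to -0.48), while Bnip3l, a mitophagy receptor gene of the same list, was at 0.29. The hypoxia list as a whole had 2 of 12 genes above 0 and a median of -0.16. The insulin, IGF and leptin signalling list had a median of 0.14 and no interval on either side of 0 among 17 measured genes. Clock genes had a median of 0.12 over 14 genes, and the apoptosis list had a median of 0.04 over 8, with Diablo at 0.58.

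**Figure D5:**
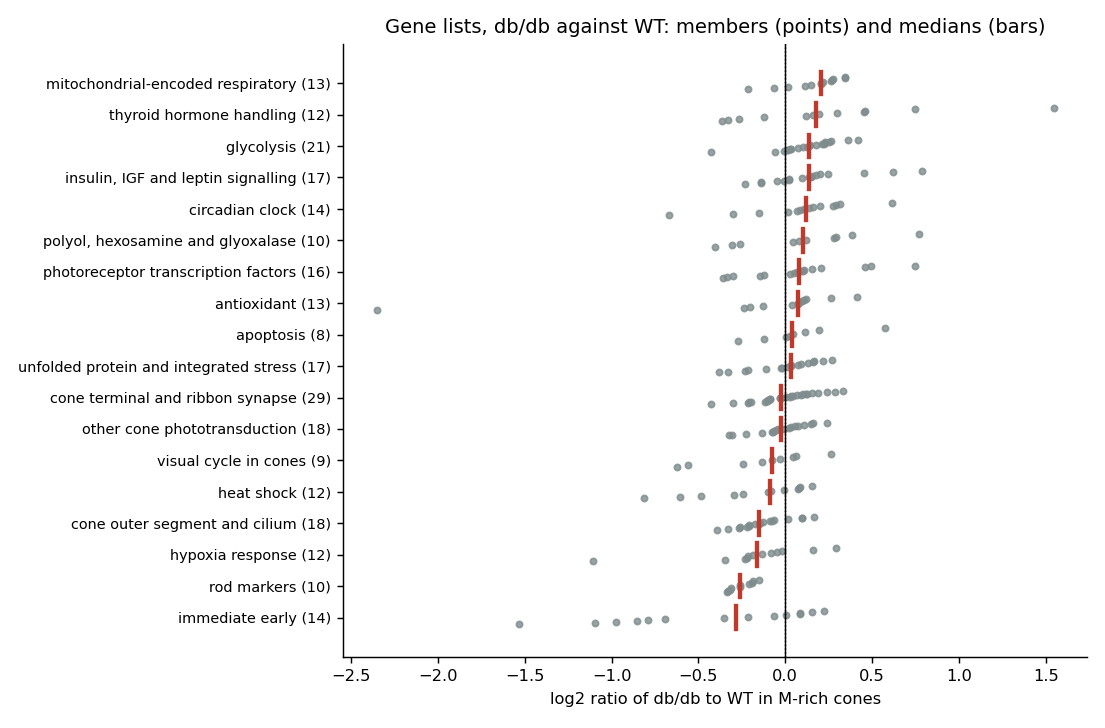
Log2 ratio of db/db to WT in M-rich cones (x axis) for the lists with at least 8 measured genes (rows, number measured in brackets), with a grey point per gene, a red bar at the list's median and a dotted line at the median of all measured genes. Mitochondrial transcripts (0.21), thyroid hormone handling (0.18) and glycolysis (0.14) lie to the right of the line, and rod markers (-0.26) and immediate early genes (-0.28) to the left.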

How the data were processed

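Single-cell suspensions of whole retina were profiled with the 10x Genomics 3' v3.1 kit, per the labels. The deposited values are counts, raw UMIs per gene and cell barcode, made by the authors with cellranger 6.0.1, per the file headers, on the mm10 genome, per the submitters' processing notes. For the annotation, cell calling and strand, the settings are not given in the sources used here. Each matrix had 32285 genes, with 11083 db/db and 10308 WT barcodes, more than the labels' target per library. Of these, 10963 and 10230 were kept. Scrublet in scanpy 1.11.5 called 2 db/db and 0 WT doublets, too few for a caller that worked, so doublets stayed in.

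Counts were summed per library and cone class. M-rich and S-opsin cones were compared with edgeR 4.0.16 (TMM scaling, quasi-likelihood test, library as a block because both classes of a library come from the same mice, Benjamini-Hochberg adjustment over 9347 genes, 7 of them rule genes that are not counted). On simulated counts the test recovered 79% of genes changed 2-fold and 48% of those changed 1.5-fold. The simulated spread was set near the one fitted to these sums, and genes with few UMIs were not among those changed. These rates thus hold for that setting and do not cover spread between mice. DESeq2 1.42.0 was an alternative. The db/db and WT libraries were compared without a test. Named genes were the 10 called genes with the highest and the 10 with the lowest fold between classes, and the 8 highest and 8 lowest by the interval bound nearest 0 between genotypes, plus members of gene lists. Rod markers, mitochondrial, ribosomal protein, haemoglobin and sex-linked genes and unnamed gene models were left out of those ranks. Cones, lists and settings were chosen with earlier results of these data known. Positions are from GENCODE M21 on GRCm38 and held 58 of 58 named genes. Promoters are from RefSeq. Some genes that the lists hold are not reported here.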

Additional observations from a re-analysis of the deposited data

Results flagged for a closer look

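Among the 16 genes named by rank between the genotypes, 3 had ratios of db/db to WT of opposite sign in M-rich and S-opsin cones. Ccdc14 had a log2 ratio of 1.35 in M-rich cones and -0.33 in S-opsin cones. Psd3 had 0.91 in M-rich cones and -0.35 in S-opsin cones. Abtb1 had -1.60 in M-rich cones and 0.55 in S-opsin cones. With 1 library per genotype these differences between the classes were not tested, and the genes were ranked on the M-rich values. The intervals of all 3 included 0 in S-opsin cones.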

How the results depend on the processing

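With 1 library per genotype and 2 pooled mice, the intervals cover counting error only, and cone numbers set what could be seen. Without the replicate block edgeR called 108 genes higher and 85 lower in M-rich cones, against 165 and 149 with it. DESeq2 called 25 and 23, and sums of cells thinned to 2000 UMIs gave 68 and 62. With S-opsin cones limited to shares under 0.05, 272 were higher. Genes at least 2-fold higher and lower in db/db M-rich cones, 25 and 22 as reported, were 11 and 6 after thinning, 48 and 38 with equal weight per cell, 77 and 91 after subtracting free RNA, 113 and 137 at a minimum of 20 UMIs and 1 and 1 at a minimum of 200. The genes changed as well as the counts. Of the 25 and 22, only 2 and 1 stayed after thinning and 4 and 3 after subtracting free RNA. From an M opsin share of 0.5, 10 and 5 stayed, and with equal weight per cell 19 and 18 did. Without the 8% highest doublet scores, 10 were lower. That cut took out 890 of 10963 kept db/db cells and 923 of 10230 kept WT cells, with 20 db/db and 39 WT M-rich cones among them. The subtraction removed 45.6% of db/db and 51.5% of WT M-rich UMIs, an upper bound. The cause of these shifts was not tested, beyond the fewer genes or cells that thinning and the minimums leave. Mt1 reversed to 0.025 without the 8% highest doublet scores and to 0.059 without cones that carry another class, an alternative added after seeing the data. Mdga2 did not pass with S-opsin cones under 0.05 (edgeR adjusted p = 0.0544), nor Klhl41 in DESeq2 (adjusted p = 0.102) or after thinning (edgeR adjusted p = 0.197). Lgr5 was at -3.53 from a share of 0.5. The share ratio of M-rich cones among opsin-bearing cones lay between 1.12 and 1.21. Its interval was above 1 only with at least 10 opsin UMIs (1.004 to 1.46), but these intervals are too wide for shares this large. Of the alternatives for single genes, 631 kept direction and call or moved less than their error, 27 moved, 6 lost the call and 2 reversed.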
